A study of Bos taurus with 23 samples.

Results

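The cows described here were the 11 with a parity number of 2 or 3 among 23 lactating Holstein cows whose endometrium was sequenced, with 1 library per cow. They were chosen by the parity number in the sample labels alone, and 5 were labelled pregnant (R) and 6 non-pregnant (nonR). The other 12 cows, 7 pregnant and 5 non-pregnant, were of parity 1. Each biopsy was taken in dioestrus on day 6 to 8, 1 cycle ahead of the transfer, and every cow then received 1 in-vitro produced embryo. Pregnancy was read at slaughter on day 26 to 47, so an embryo that never attached and one lost before that day cannot be told apart. Both groups shared the breed, the lactating state and the embryo transfer, and no cow carried a genetic change or a drug treatment in the labels. Parity 2 held 2 pregnant cows (numbers 10 and 15) and 3 non-pregnant cows (1, 6 and 19), and parity 3 held 3 pregnant cows (11, 18 and 21) and 3 non-pregnant cows (3, 12 and 14). Cow numbers are those of the sample titles. Calving lay 145 to 274 days back in the pregnant cows and 155 to 261 days in the non-pregnant cows.

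The endometrium is the lining of the uterus, made of luminal and glandular epithelium, stroma, vessels and immune cells. In the days after ovulation it passes from oestrogen to progesterone control, and its glands begin to secrete the fluid that feeds the embryo before attachment. A uterus in which a transferred embryo can develop is called receptive. The study looked for endometrial genes whose level before transfer differs between receptive and other animals, and it listed 50 of them, 32 with higher expression in pregnant animals (UP genes) and 18 with lower expression (DOWN genes). That list was chosen in part on Holstein cows of this series, so its directions in these 11 cows are a description and not independent evidence. A biopsy holds all these cell types together, and fewer cells of a type and less RNA per cell cannot be told apart in it. The deposited counts name genes by Ensembl identifier, and symbols were at hand for the 50 listed genes alone, so the tissue was not checked against cell type markers.

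The pregnant cows gave between 6920879 and 18805698 counts in genes per library (median 17784937), and the non-pregnant cows between 14147023 and 23119299 (median 19958118). Some reads were assigned to no gene by HTSeq and are called outside genes here. They made up 47.3% to 76.7% of the reads in genes, outside genes or ambiguous in the pregnant cows. In the non-pregnant cows this share was 42.3% to 59.6%. Where these reads lie in the genome was not checked. Log2 counts in genes (exact permutation p 0.143), the share outside genes (exact p 0.212), the ambiguous share (exact p 0.247), days from calving (exact p 0.60) and parity number (exact p 1) did not pass a two-sided permutation test over the 462 arrangements of the cows, which cannot go below 0.00433. The smallest of the 5 after Benjamini-Hochberg adjustment was 0.411. A pair of libraries stood apart from the other 9. Pregnant cow 21 had the lowest count in genes and 76.7% of its reads outside genes, and its median Spearman correlation with the other 10 libraries was 0.920. Non-pregnant cow 6 had 20507100 counts and an ordinary share outside genes (48.6%), but its median correlation was 0.940, against 0.962 to 0.972 in the other 9 cows. Because these 2 cows are of opposite status, the results that rest on them are also given for the 9 cows without them. What sets them apart was not tested. Each library came from a separate cow, so the spread between libraries includes that between animals.

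**Figure D1:**
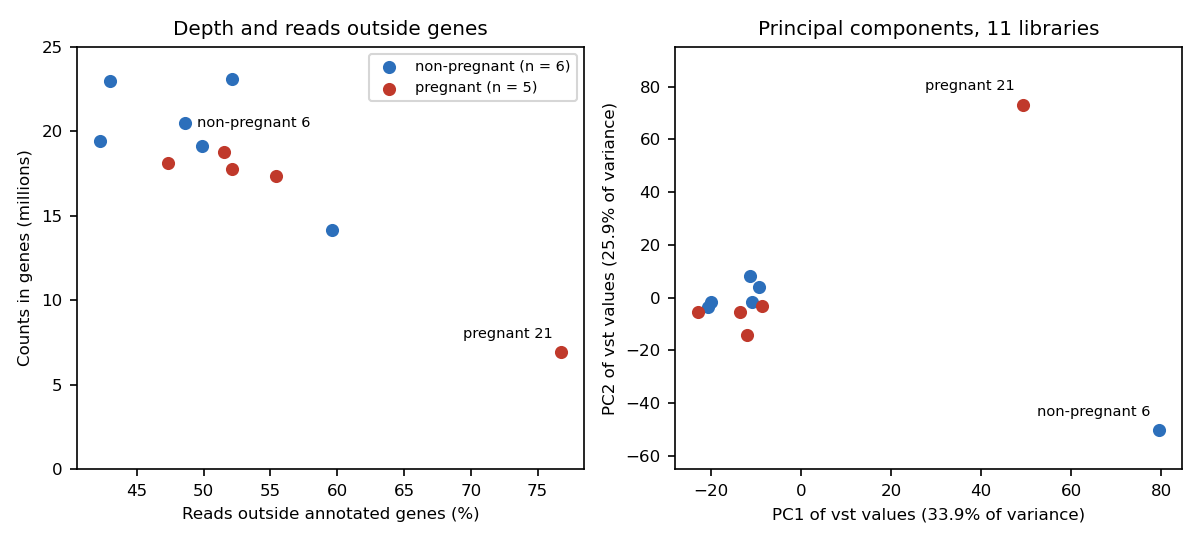
Left, counts in genes (in units of 1000000) against the percent of reads assigned to no gene (outside genes). Right, the first and second principal components of variance-stabilised counts (vst). Each point is 1 library, for 6 non-pregnant cows (blue) and 5 pregnant cows (red). Pregnant cow 21 sits alone at 6920879 counts and 76.7% outside genes, and on the components cow 21 (49.3 and 73.2) and non-pregnant cow 6 (79.5 and -50.3) lie far from the other 9 cows, which span -22.8 to -8.66 on the first component.

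The main question was whether any gene differed before transfer between cows of parity 2 or 3 that later were pregnant and those that were not. Of 24616 genes, 15042 were tested with edgeR's quasi-likelihood test, and 0 passed an adjusted p of 0.05 (0% called). The smallest adjusted p was 0.908. At an unadjusted p under 0.05 there were 713 genes, or 4.74% of those tested, with 299 of them higher and 414 lower in pregnant cows. That balance depended on the setting, with 1123 higher and 527 lower when no filter on low counts was used, and 484 higher and 452 lower with the share of reads outside genes as a covariate. DESeq2's Wald test was run on the same genes but gave some of them no p, BHLHE40 and TRIB1 among these. It called 5 genes (0.0332% of those entered), 4 higher and 1 lower. All 5 are known by identifier alone, and 2 of them are described below. The median log2 fold change over all genes was -0.015, and 47.6% of genes were above 0. For 9599 genes (63.8%) the 95% interval of the fold change lay within 2-fold in both directions, so for most genes a larger difference between the group means lay outside the interval, while for the rest it did not. Without cows 6 and 21, 0 genes passed either, the smallest adjusted p was 0.553, and 1275 genes (8.5%) were under an unadjusted 0.05.

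In 71 genes (0.472% of those tested) the CPM of the groups (counts per 1000000 counts in the genes tested, with library sizes scaled by TMM) did not overlap, with all pregnant cows above in 35 and below in 36. The gene with the smallest p among those higher in pregnant cows was ENSBTAG00000007187, with 14.3, 9.91, 14.9, 11.9 and 19.1 CPM in pregnant cows 10, 11, 15, 18 and 21, an order kept below. Its lowest, median and highest value in non-pregnant cows were 4.17, 6.74 and 7.29 CPM. Every pregnant cow thus stood above every non-pregnant cow, and this held in cow 21 as in the others. The log2 fold change was 1.15 (SE 0.211, edgeR adjusted p 0.908, DESeq2 adjusted p 0.00374), and 0.93 (SE 0.173) without cows 6 and 21. In first-parity cows the same gene gave 0.20 (SE 0.393). The difference between the parity classes, 0.96 (SE 0.459), had an edgeR p of 0.0480 and an adjusted p of 0.992. This gene and the identifiers below were picked by their p in the later parities, which enter that difference. The unadjusted p of the difference is thus favoured by the picking.

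ENSBTAG00000017677, called by DESeq2 as well (adjusted p 0.0224; edgeR 0.908), had 0.498, 1.52, 2.09, 2.02 and 3.91 CPM in the pregnant cows, while the non-pregnant cows gave 0.102, 0.236 and 0.614 CPM. Pregnant cow 10 overlapped the non-pregnant range, and the other 4 lay above it. This gene is rare in the tissue, with 2 counts in its lowest library. The genes with the smallest p in the other direction were ENSBTAG00000001441 and ENSBTAG00000005629. ENSBTAG00000001441 had 10.4, 11.3, 10.9, 8.91 and 13.9 CPM against 13.7, 19.9 and 22.4 CPM, with cow 21 inside the non-pregnant range (log2 fold change -0.77, SE 0.179, edgeR adjusted p 0.908). ENSBTAG00000005629 had 6.65, 10.5, 7.24, 8.08 and 10.8 CPM against 11.5, 16.6 and 25.2 CPM, without overlap (log2 fold change -1.05, SE 0.246, edgeR adjusted p 0.908). In parity 1 ENSBTAG00000005629 gave 0.0057 (SE 0.276), and the difference between the classes was -1.04 (SE 0.368, edgeR p 0.0101, adjusted p 0.992). This unadjusted p is favoured by the picking as well. ENSBTAG00000001441 gave -0.78 (SE 0.233) in parity 1, with a difference of 0.011 (SE 0.292, edgeR p 0.971). ENSBTAG00000017677 gave 1.74 (SE 0.986) there, with a difference of 0.96 (SE 1.15, edgeR p 0.412). None of these identifiers is among the 50 listed genes.

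All 50 listed genes passed the filter on low counts. None was called (0 of 50, beside 0% of all genes), none had an unadjusted p under 0.05 (smallest 0.0519, YWHAQ, beside 4.74% of all genes), and the groups overlapped in all 50. By DESeq2 the smallest adjusted p among the listed genes was 0.720 (YWHAQ), with no p given for BHLHE40 and TRIB1. By sign alone, 38 of 50 lay on the side the list gives. Of the UP genes, 27 of 32 (84.4%) were above 0, beside 47.6% of all genes, with a median log2 fold change of 0.18. Of the DOWN genes, 11 of 18 (61.1%) were below 0, beside 52.4% of all genes, with a median of -0.075. The log2 fold change exceeded its standard error in 23 genes, 19 on the listed side and 4 against it (BHLHE40, TRIB1, DIDO1 and PIK3C3), and in the other 27 it lay between -0.21 and 0.20. For 40 of the 50 the 95% interval lay within 2-fold in both directions. Without cows 6 and 21, 43 of 50 were on the listed side (28 UP, 15 DOWN), beside 50.5% of all genes above 0, with medians of 0.17 and -0.12. Then 7 genes, all on the listed side, had an unadjusted edgeR p under 0.05 (RARRES1, TMEM45A, SCG5, SLC35A3, GLB1L, CLECL1 and YWHAQ), while 8.5% of all genes did, and the smallest adjusted p over all genes was 0.553. Cows 6 and 21 were set apart from these same counts. Cow 21 was the lowest cow for RARRES1, TMEM45A, SCG5 and GLB1L, so leaving it out took away the value furthest against the list. Their unadjusted p values with 9 cows are favoured by that choice.

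**Figure D2:**
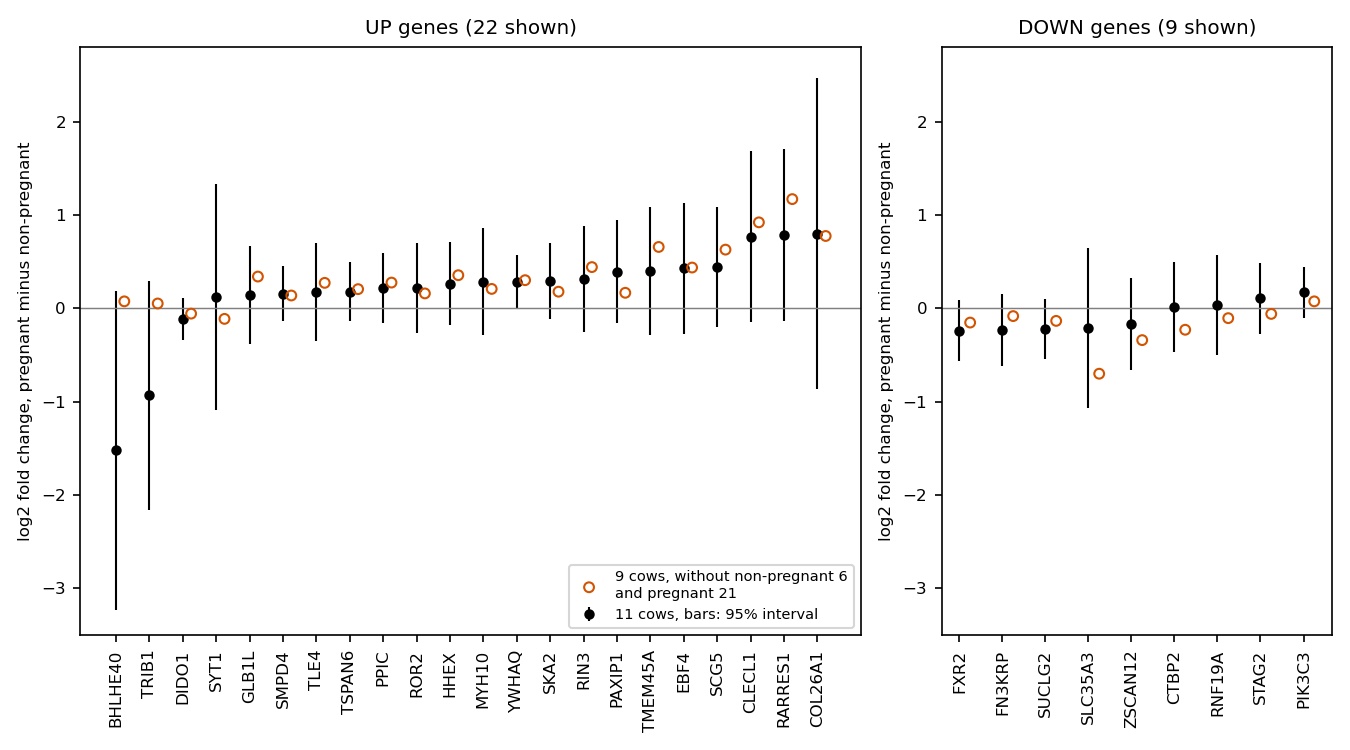
Log2 fold change, pregnant minus non-pregnant (vertical axis), of 31 of the 50 listed genes (22 UP, 9 DOWN); black points are the 11 cows with their 95% interval, orange circles the 9 cows without non-pregnant cow 6 and pregnant cow 21. Intervals of all 31 genes include 0, and BHLHE40 (-1.52 to 0.075) and TRIB1 (-0.93 to 0.052) move most when the 2 cows are left out.

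The 7 genes of matrix, cytoskeleton and membrane, all UP genes, had a median of 0.40, or 0.66 without cows 6 and 21. Within parity 2, with 2 pregnant cows, their median was 0.81, and within parity 3 it was 0.013. Without cows 6 and 21 these medians were 1.06 and 0.17. All 7 were above 0, as were 27 of 32 UP genes, although none of the 7 passed the test. The other groups by role, the Wnt receptor aside, mix UP and DOWN genes, so their medians cannot be ranked against this one. RARRES1, a retinoic acid-responsive membrane gene, had 459, 210.0, 428, 526 and 77.2 CPM in the pregnant cows and 99.0, 186 and 279.6 CPM as the lowest, median and highest of the non-pregnant cows. Pregnant cows 10, 15 and 18 stood above every non-pregnant cow, cow 11 lay within their range and cow 21 below it. Its log2 fold change was 0.79 (SE 0.423, edgeR p 0.0878), and without cows 6 and 21 1.17 (SE 0.304, edgeR p 0.00287), adjusted p 0.553. TMEM45A, which encodes a transmembrane protein, had 52.7, 51.8, 44.6, 54.0 and 13.6 CPM in pregnant and 20.1, 33.9 and 42.1 CPM in non-pregnant cows. Here all pregnant cows but cow 21 were above the whole non-pregnant group, and cow 21 was the lowest of the 11. The log2 fold change was 0.40 (SE 0.314, edgeR p 0.226) with all cows and 0.66 (SE 0.205, edgeR p 0.00860) with 9 cows.

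CLECL1, a C-type lectin-like gene known from immune cells, gave 7.42, 2.87, 6.22, 3.78 and 1.75 CPM in pregnant cows and 1.51, 2.18 and 4.85 CPM in non-pregnant cows. Its higher values were those of pregnant cows 10 and 15, both of parity 2, and the other 3 pregnant cows overlapped the non-pregnant range. The log2 fold change was 0.77 (SE 0.422, edgeR p 0.0933), with 13 counts in cow 21, and it was 0.50 without pregnant cow 10. COL26A1, a collagen of the extracellular matrix, had 28.6, 20.2, 48.0, 23.7 and 8.35 CPM in pregnant cows and 1.02, 15.1 and 33.1 CPM in non-pregnant cows. The non-pregnant cows were split, with 1.02 CPM in cow 6 and 1.12 CPM in cow 19 and at least 15.0 CPM in the other 4, and the log2 fold change of 0.80 had a 95% interval from -0.86 to 2.46. It was 0.45 without pregnant cow 15 and 1.21 without non-pregnant cow 14. PPIC, a prolyl isomerase of the secretory pathway, and TSPAN6, a tetraspanin, gave 0.21 (SE 0.172) and 0.18 (SE 0.145) on the log2 scale, and 0.14 without non-pregnant cow 1 and 0.076 without pregnant cow 18. MYH10, the heavy chain of a non-muscle myosin, gave 0.28 (SE 0.263), and its lowest value of the 11, 71.8 CPM, was again that of cow 6, with the other non-pregnant cows at 187 CPM or more. Without cow 6 the log2 fold change of MYH10 was 0.12.

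**Figure D3:**
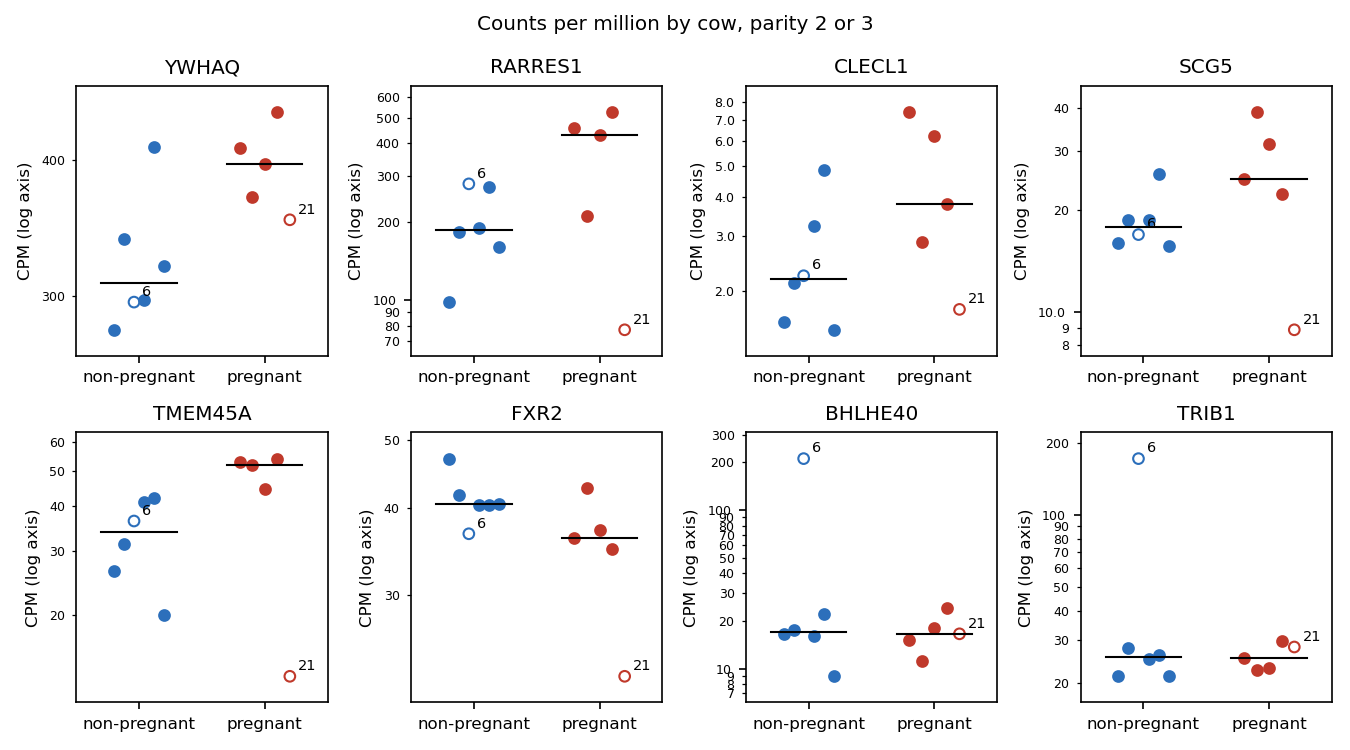
CPM of 8 listed genes by cow on log axes, 6 non-pregnant cows in blue and 5 pregnant cows in red, with a line at each group's median; open circles are non-pregnant cow 6 and pregnant cow 21. In RARRES1, SCG5 and TMEM45A cow 21 is the lowest of the 11 cows, and in BHLHE40 (212 CPM) and TRIB1 (173 CPM) cow 6 is far above all others.

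Among genes of signalling and protein turnover, 6 of 9 were on the listed side and the median was 0.038. YWHAQ, an adaptor that binds phosphorylated proteins, had the smallest p of the 50. It had 411, 370.0, 397, 443 and 353 CPM in pregnant cows and 279, 309 and 411 CPM in non-pregnant cows. Each of the 5 pregnant cows exceeded the median of the non-pregnant cows, but non-pregnant cow 14, with the 411 CPM, reached into their range. The log2 fold change was 0.29 (SE 0.132, edgeR p 0.0519), adjusted p 0.908, and it stayed between 0.24 and 0.37 when each cow was left out in turn. TRIB1, a pseudokinase that brings proteins to a ubiquitin ligase, had 25.4, 22.6, 22.9, 29.8 and 28.2 CPM in pregnant cows and 21.2, 25.6 and 173 CPM in non-pregnant cows. After cow 6 the next non-pregnant value was 27.8 CPM, which 3 of the 5 pregnant cows did not reach and cows 18 and 21 passed. The log2 fold change went from -0.93 (SE 0.562) to 0.083 without cow 6. RNF19A, a ubiquitin ligase on the DOWN list, had 125, 136, 153, 145 and 292 CPM in pregnant cows, and 120.3, 159.7 and 244 CPM in the others. Its highest value was that of cow 21, and the log2 fold change of 0.032 became -0.25 without that cow.

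Transcription factors and cofactors were on the listed side in 5 of 7 genes, with a median of 0.054. BHLHE40, a repressor linked to the circadian clock, had 15.2, 11.2, 17.9, 24.0 and 16.6 CPM in pregnant cows. In non-pregnant cows its lowest, median and highest values were 8.94, 17.1 and 212 CPM. The highest came from cow 6, the next was 22.0 CPM, and the medians of the groups were close. Its log2 fold change was -1.52 (SE 0.785, edgeR p 0.0767) with all cows, the largest of the 50 in size and against the listed side, and 0.065 without cow 6. HHEX, a homeobox factor, gave 0.26 (SE 0.203) and EBF4, of the early B-cell factor family, 0.43 (SE 0.323). For EBF4 the pregnant cows had 15.0, 9.74, 13.2, 12.6 and 5.93 CPM, against 3.82, 7.89 and 14.8 CPM in the non-pregnant cows, and 4 of 5 pregnant cows were above the non-pregnant median. TLE4, a corepressor of Wnt target genes, gave 0.18 (SE 0.239), and ZSCAN12, a zinc finger gene of the DOWN list, -0.16 (SE 0.226). Leaving out single cows took TLE4 to 0.065 (pregnant cow 15) and ZSCAN12 to -0.014 (non-pregnant cow 1), EBF4 to 0.28 (cow 6) and HHEX to 0.16 (pregnant cow 10). CTBP2, another corepressor and a DOWN gene, had 58.7, 71.1, 67.0, 55.6 and 134 CPM in pregnant cows and 66.2, 75.0 and 88.3 CPM in non-pregnant cows. Cow 21 was the highest of all 11, and the log2 fold change went from 0.013 to -0.28 without it.

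The only listed Wnt receptor, ROR2, which binds Wnt ligands of the non-canonical branch, had 36.4, 26.6, 36.2, 32.5 and 26.9 CPM in pregnant cows and 15.7, 27.6 and 40.3 CPM in non-pregnant cows. The groups overlapped throughout and the log2 fold change was 0.22 (SE 0.221, edgeR p 0.333), with 0.11 left without cow 6 and 0.37 without non-pregnant cow 14. Genes of endosome, vesicle and secretion were on the listed side in 5 of 6. SCG5, a chaperone of a prohormone convertase in secretory granules, had 24.6, 38.9, 31.3, 22.3 and 8.89 CPM in pregnant cows and 15.8, 17.8 and 25.6 CPM in non-pregnant cows. As in TMEM45A, cow 21 was the lowest of the 11, whereas the other 4 pregnant cows exceeded every non-pregnant cow except, for cows 10 and 18, non-pregnant cow 14. Its log2 fold change was 0.44 (SE 0.294, edgeR p 0.160), but 0.23 without pregnant cow 11. Without cows 6 and 21 it was 0.63 (SE 0.200, edgeR p 0.00957, adjusted p 0.553). RIN3, which activates Rab proteins of early endosomes, gave 0.32 (SE 0.261), and 0.18 without non-pregnant cow 19. SYT1, the calcium sensor of vesicle release, had 11.2, 11.4, 9.45, 12.6 and 10.5 CPM in pregnant cows and 0.356, 12.0 and 13.8 CPM in non-pregnant cows. Its lowest value rested on 7 counts in cow 6, and the log2 fold change went from 0.12 (SE 0.554) to -0.13 without that cow. PIK3C3, a lipid kinase of endosomes and autophagy, was a DOWN gene on the other side, at 0.17 (SE 0.126), or 0.095 without cow 21.

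The glycan and lipid enzymes were all on the listed side, 4 of 4, and none passed the test. SLC35A3, the Golgi carrier of UDP-N-acetylglucosamine, had 155, 219.5, 91.5, 154 and 348 CPM in pregnant cows and 83.2, 226 and 378 CPM in non-pregnant cows. The lowest non-pregnant value was that of cow 6 and the highest pregnant value that of cow 21. With 9 cows its log2 fold change was -0.70 (SE 0.292, edgeR p 0.0361, adjusted p 0.57). With 11 cows it was -0.21 (SE 0.393, edgeR p 0.599). It was -0.0012 without non-pregnant cow 19 and -0.037 without pregnant cow 15. GLB1L, a beta-galactosidase-like enzyme, had 39.3, 38.1, 51.1, 49.4 and 16.3 CPM in pregnant cows and 30.8, 34.2 and 43.9 CPM in non-pregnant cows. Cow 21 was again the lowest of the 11. Without cows 6 and 21 the log2 fold change was 0.34 (SE 0.145, edgeR p 0.0390, adjusted p 0.57). With all cows it was 0.14 (SE 0.240). It was 0.024 without pregnant cow 15 and 0.040 without pregnant cow 18. SMPD4, a sphingomyelinase, gave 0.16 (SE 0.133), and FN3KRP, a kinase acting on sugar adducts of proteins, gave -0.23 (SE 0.177), or -0.10 without cow 21.

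The 4 genes of mitochondria and fatty acid oxidation were all below 0, with a median of -0.11, and 3 of them are DOWN genes. SUCLG2, which belongs to a mitochondrial ligase that makes succinate, had 164, 162, 143, 136 and 129 CPM in pregnant cows and 137, 163 and 224 CPM in non-pregnant cows. A single pregnant cow was above the non-pregnant median, and the log2 fold change was -0.22 (SE 0.148, edgeR p 0.163), or -0.13 without non-pregnant cow 19. Of the 3 genes of RNA and tRNA handling, FXR2, an RNA-binding relative of the fragile X protein, had 36.2, 42.7, 37.2, 34.9 and 22.9 CPM in pregnant cows and 36.7, 40.5 and 47.1 CPM in non-pregnant cows. The groups overlapped, with cow 21 well below the rest, and the log2 fold change of -0.24 (SE 0.150, edgeR p 0.135) was -0.12 without cow 21.

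Genes of chromatin, DNA repair and SUMO were on the listed side in 4 of 6. PAXIP1, a chromatin and DNA damage protein, had 10.1, 10.6, 9.50, 10.2 and 23.0 CPM in pregnant cows and 7.51, 9.18 and 12.5 CPM in non-pregnant cows. Cow 21 alone stood above the non-pregnant range, and the log2 fold change of 0.39 (SE 0.252) was 0.073 without it. DIDO1, a chromatin reader of the UP list, was on the other side, at -0.11 (SE 0.104), or -0.060 without cow 6. Of the 3 genes of cell cycle and chromosome segregation, SKA2, a kinetochore protein, was on the listed side, with 50.2, 36.8, 44.7, 40.6 and 42.0 CPM in pregnant cows and 19.0, 39.4 and 40.3 CPM in non-pregnant cows. Most values lay close together, cow 6 was the lowest, and the log2 fold change was 0.29 (SE 0.188, edgeR p 0.142), or 0.17 without cow 6. STAG2, a cohesin subunit and a DOWN gene, gave 0.11 (SE 0.172), with its highest value, 486 CPM, in cow 21, and -0.077 without that cow.

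Across the 50 genes, pregnant cow 21 was the lowest of the 11 cows for 12, of which 9 were UP genes, and the highest for 8, of which 7 were DOWN genes. Non-pregnant cow 6 was the lowest for 11 and the highest for 3. For these 9 UP and 7 DOWN genes cow 21 lay at the end that the list gives to non-pregnant animals. The median ratio between the highest and the lowest cow was 2.04 over the 50 genes with all cows and 1.60 with 9 cows. A score per cow, the mean standardised level of the UP genes minus that of the DOWN genes, ranged from -1.12 to 1.56 in pregnant cows (mean 0.334 ± 1.06, SD, n = 5) and from -1.29 to 0.891 in non-pregnant cows (-0.279 ± 0.733, SD, n = 6). The ranges overlapped over most of their length.

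Splitting the cows by parity number separated cow 6 (parity 2) from cow 21 (parity 3); this split was added after the values were seen. Within parity 2, 37 of the 50 genes were on the listed side (24 UP, 13 DOWN), and the median of the UP genes was 0.33. Within parity 3, 20 of 50 were (13 UP, 7 DOWN), and that median was -0.028. Of all genes, 45.3% were above 0 within parity 2 and 51.0% within parity 3. Without cow 6 the count within parity 2 was 41 of 50, and without cow 21 the count within parity 3 was 31 of 50 (22 UP, 9 DOWN), with UP medians of 0.31 and 0.063. The test of the difference between the parities, the interaction of pregnancy status with parity number over 16258 genes, called 0 genes (0%), and 0 without cows 6 and 21 as well. At an unadjusted p under 0.05 it held 1058 of all genes (6.51%) and 5 of the 50.

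CLECL1 showed the smallest p of that interaction among the 50. Its log2 fold change was 1.93 within parity 2, where the pregnant cows had 7.42 and 6.22 CPM and the non-pregnant cows 1.60, 2.24 and 1.51 CPM. Within parity 3 it was -0.26, with 2.87, 3.78 and 1.75 CPM against 2.13, 3.21 and 4.85 CPM. The difference of 2.21 (SE 0.640) had an edgeR p of 0.00606 and an adjusted p of 0.709. ROR2 gave 0.82 within parity 2 and -0.24 within parity 3 (difference 1.08, SE 0.332, edgeR p 0.00863, adjusted p 0.709). COL26A1 gave 2.75 and -0.45, and its values of 1.02 and 1.12 CPM in non-pregnant cows both belong to parity 2 (difference 3.23, SE 1.32, edgeR p 0.0341, adjusted p 0.709). EBF4 gave 1.15 and -0.15 (difference 1.33, SE 0.583, edgeR p 0.0460, adjusted p 0.709). The fifth gene was WDR20, a partner of deubiquitinating enzymes, with -0.51 and 0.16 (edgeR p 0.0179, adjusted p 0.709). With 2 pregnant cows in parity 2, each of these values rests on few animals. The genes of this paragraph were picked by that p, in a split added after the values were seen. Their unadjusted p values are thus favoured by the picking.

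**Figure D4:**
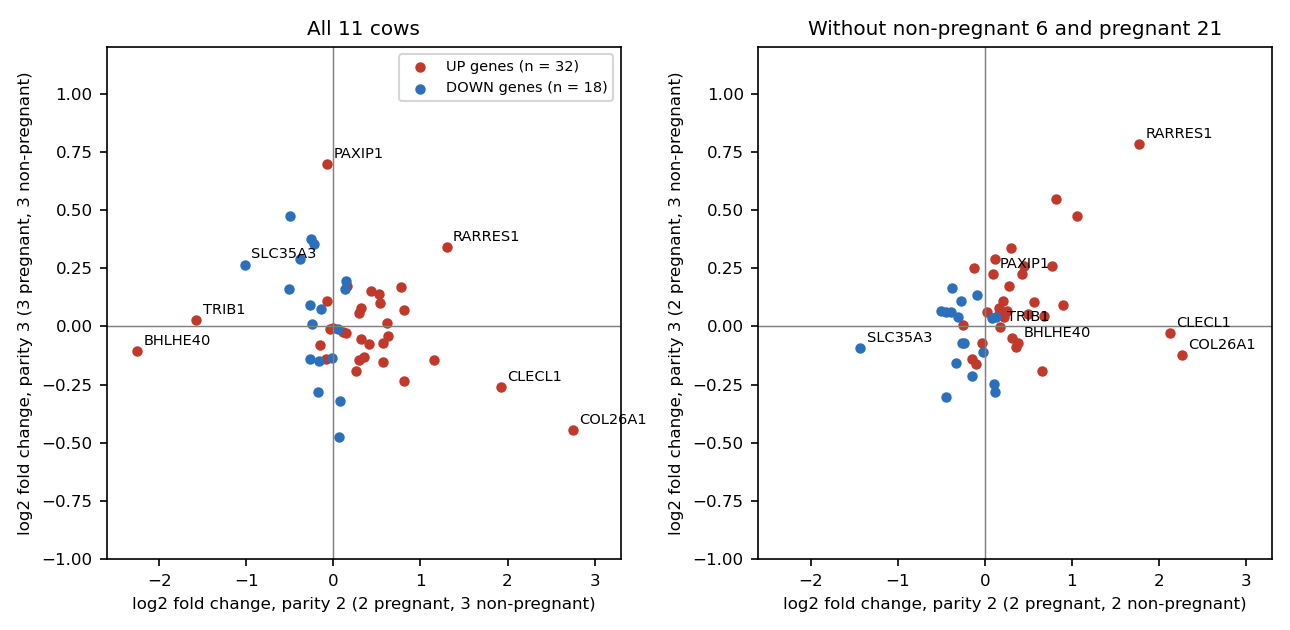
Log2 fold change, pregnant minus non-pregnant, within parity 3 (vertical) against parity 2 (horizontal) for the 32 UP genes (red) and 18 DOWN genes (blue), with all 11 cows on the left and without non-pregnant cow 6 and pregnant cow 21 on the right. On the left the UP genes spread to the right of 0 with a median of 0.33 in parity 2 but lie around 0 in parity 3 (-0.028), and BHLHE40 and TRIB1 move from the far left to near 0 once cow 6 is left out.

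A second comparison asked whether the differences in cows of parity 2 or 3 are other than those in first-parity cows. Within parity 1, edgeR called 0 of 14954 genes (1041 at an unadjusted p under 0.05; DESeq2 called 2), and 37 of the 50 listed genes were on the listed side (24 of 32 UP, 13 of 18 DOWN), where 54.6% of all genes were above 0. In the later parities the count was 38, where 47.6% of all genes were above 0. The test of that difference, pregnancy status by parity class, called 0 of 15743 genes (0%), with 472 (3.00%) at an unadjusted p under 0.05 and a smallest adjusted p of 0.992, while DESeq2 called 1. None of the 50 had an unadjusted interaction p under 0.05. The smallest was that of BHLHE40 (0.0864), with -1.52 in the later parities and 1.15 (SE 1.13) in parity 1, a difference of -2.64 (SE 1.47). The later-parity value of BHLHE40 was 0.065 without non-pregnant cow 6. RARRES1 gave 0.79 and 0.20 (SE 0.49) in later and first parities, SCG5 0.44 and -0.072 (SE 0.431), RIN3 0.32 and 0.92 (SE 0.334), and SLC35A3 -0.21 and -0.66 (SE 0.328). None of these pairs passed the interaction test (edgeR p 0.396 for RARRES1, 0.359 for SCG5, 0.167 for RIN3 and 0.400 for SLC35A3). The test was also run without 6 libraries set apart among all cows, cows 6 and 21 and others of parity 1. It called 0 of 15416 genes, with 685 at an unadjusted p under 0.05 and a smallest adjusted p of 0.976. The values of single genes in parity 1 given here include all its cows. These tests do not show that the classes are alike.

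**Figure D5:**
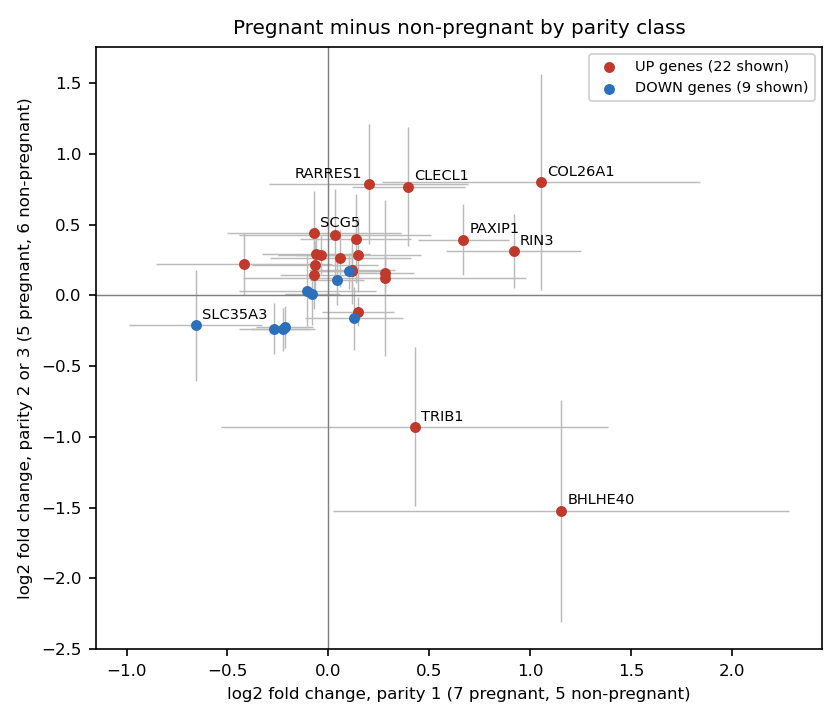
Log2 fold change, pregnant minus non-pregnant, in cows of parity 2 or 3 (vertical, 5 against 6 cows) and of parity 1 (horizontal, 7 against 5 cows) for 31 listed genes (22 UP in red, 9 DOWN in blue), with bars of 1 standard error. None of the 31 passed the test of the difference between the classes, and BHLHE40 (1.15 in parity 1, -1.52 in parity 2 or 3) has the widest bars.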

How the data were processed

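Endometrial biopsies kept in RNAlater were sequenced after TruSeq stranded total RNA preparation, per the labels. According to the processing notes of the submitters, STAR aligned the reads to UMD3.1, and the authors deposited HTSeq counts per Ensembl gene, whole numbers without normalization. Which tool versions, annotation release and strand setting were used is not given in the sources used here. How reads in genes overlapping on opposite strands were counted is thus not known. The 5 summary lines per file (outside genes, ambiguous and the like) were left out of library sizes.

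Groups came from the labelled pregnancy status. The members and lists were chosen with earlier results of these data known, and the study does not tie its Holstein subset to the labels. Genes were kept by edgeR's default filter (version 4.0.16, R 4.3.3; minimum count 10, minimum total 15), scaled by TMM and tested with the quasi-likelihood test, Benjamini-Hochberg adjusted over all genes at 0.05. A log2 fold change is pregnant minus non-pregnant. Its standard error (SE) comes from the estimate and its F statistic, with 95% intervals. CPM are after TMM, and the symbol lists of other pathways and cell types could not be matched to identifiers. DESeq2 1.42.0 gave a second test and the vst values. Library measures were compared by exact permutation. The score standardises log2 CPM over the 11 cows. Of 25 within-group pairs of libraries, none came close to a repeated library (the lowest ratio of chi-square to degrees of freedom was 38.2, in genes with at least 10 counts). Alternatives were other size factors, filters and tests, covariates (parity number, days from calving, share of reads outside genes), a fit of all 23 cows, each cow left out in turn, and the 9 cows without non-pregnant cow 6 and pregnant cow 21. The difference between parity classes was also fitted with parity number as a linear term and without 6 libraries set apart. The values within parity 2 and 3 and their test were added after the data were seen. The scripts were tested on simulated data. All 50 listed genes enter every count, and single values are given for those the text names. Named genes were those of the study's list, with the 2 identifiers of smallest p per direction.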

Additional observations from a re-analysis of the deposited data

Results flagged for a closer look

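Each group's highest and lowest cow was set against its neighbours by Dixon's ratio for the named genes and the library measures, in 76 groups of cows. A cow stood far from the rest of its group in 16 of them, 11 of these in non-pregnant cow 6 or pregnant cow 21. The rule flags about 1 in 20 independent groups by chance. These groups share the same 11 cows, and the genes were named with results of these data known, so that rate is no yardstick here. No explanation was tested for any of the 16.

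Pregnant cow 21 had 6920879 counts in genes, against 17370858 in the next pregnant cow, and 76.75% of its reads outside genes, against 55.41%. It was high for PAXIP1 (23.04 CPM), RNF19A (291.7 CPM), CTBP2 (134.2 CPM) and STAG2 (486.2 CPM), and low for TMEM45A (13.61 CPM). The last 3 of the high ones are DOWN genes, and TMEM45A is an UP gene.

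Non-pregnant cow 6 was high for BHLHE40 (211.5 CPM, next 22.03) and TRIB1 (172.6 CPM, next 27.8). It was low for MYH10 (71.79 CPM, next 186.9) and SYT1 (0.3564 CPM, next 10.27). These 4 are UP genes. Its depth and its share of reads outside genes were inside the range of its group.

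The remaining values came from cows that did not stand apart as libraries. Non-pregnant cow 14 was the highest of its group for SCG5 (25.56 CPM), HHEX (15.82 CPM) and GLB1L (43.9 CPM). Non-pregnant cow 1 was high for PIK3C3 (90.53 CPM), and non-pregnant cow 19 was low for RIN3 (1.843 CPM).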

How the results depend on the processing

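In edgeR, 0 genes were called under every alternative run. DESeq2's Wald test called 5 genes in the 11 cows, 1 for the difference between parity classes and 2 in first-parity cows. The count at an unadjusted p under 0.05, 713 with all cows, was 1650 with no filter on low counts (1123 higher and 527 lower, against 299 and 414), 1275 without cows 6 and 21, and 517 to 978 when each cow was left out. The UP genes above 0 numbered 24 to 27 and the DOWN genes below 0 numbered 10 to 15 when each cow was left out. Within parity 3 they were 13 of 32 and 7 of 18. Of 698 values of 35 named genes under 20 alternatives, 671 kept their direction and did not cross the threshold. A further 2 passed it (ENSBTAG00000007187 and ENSBTAG00000017677, by DESeq2) and 25 changed sign. The 671 include the DESeq2 values of BHLHE40 and TRIB1, which kept their direction but had no p. Without cows 6 and 21 the log2 fold change was 0.0753 for BHLHE40, 0.0524 for TRIB1, -0.1124 for SYT1, -0.1046 for RNF19A, -0.229 for CTBP2 and -0.0592 for STAG2. With 1 cow left out at a time these genes ranged from -1.7434 to 0.0646, -1.0863 to 0.0834, -0.1305 to 0.2343, -0.251 to 0.1761, -0.2782 to 0.1059 and -0.077 to 0.1713, with the positive values of BHLHE40 and TRIB1 and the negative value of SYT1 all without cow 6. With the share of reads outside genes as a covariate RNF19A gave -0.2891, CTBP2 -0.2861 and STAG2 -0.0851. With days from calving RNF19A gave -0.0213 and CTBP2 -0.0321, with no filter -0.0152 and -0.034, and with parity number CTBP2 gave -0.004. The cause of these changes was not tested. Lists of other pathways by symbol were not run. No paired analysis was possible because the groups share no replicate numbers. Cow 21 was the shallowest library, with 13 counts of CLECL1.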
